A study of Mus musculus with 4 samples.

Results

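The genes described here are H2afz and H2afv, which encode the histone variant H2A.Z, and Anp32e, which encodes a chaperone that takes H2A.Z out of nucleosomes. They were chosen by name and are 3 of the 32285 genes counted. All 3 were found in the matrix and passed the filter on low values in every comparison below. Single-cell RNA sequencing had been done on donor (CD45.2) hematopoietic stem and progenitor cells (HSPCs) that were isolated from C57BL/6 bone marrow when 20 weeks had passed since a competitive transplantation. The labels name 2 samples of Srcap heterozygous mutant HSPCs and 2 samples of WT HSPCs, and do not describe the change that the Srcap allele carries. For each of the 4 samples, 20000 donor HSPCs entered droplet capture with 10x Genomics 3′ chemistry. The deposited matrix joins 4 libraries that are separated by the barcode suffixes 1 to 4, and the labels do not say which suffix belongs to which sample. No comparison of mutant with WT was therefore made, and the comparisons below are between classes of cells inside each library.

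H2A.Z takes the place of the ordinary histone H2A in a fraction of nucleosomes, above all in those that flank active promoters and enhancers. The SRCAP complex and the TIP60-p400 complex exchange H2A for H2A.Z, and ANP32E binds H2A.Z and evicts it. Ordinary histone genes are transcribed during DNA replication and their messages end in a stem-loop, whereas the H2A.Z genes belong to the replication-independent histones, whose messages carry a poly(A) tail and are captured by oligo(dT). H2afz lies on chromosome 3 at 137864487 to 137866922 on the plus strand, H2afv on chromosome 11 at 6427229 to 6444443 on the minus strand, and Anp32e on chromosome 3 at 95929246 to 95947390 on the plus strand, all in GENCODE coordinates of GRCm38. The coding sequences of H2afz and H2afv are 384 bases each, and 304 of these bases are identical (79.2%), while the proteins are known to be nearly the same. The last 300 bases of the transcripts, where 3′ reads fall, had no match of at least 95% identity over at least 90 bases between members. The only other match was from H2afz to the long noncoding RNA Gm26623, which is not among the genes of the matrix.

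The 3 genes were high together in cycling cells, as described below, so the 250 bases before each RefSeq start are shown, with matches to motifs known from cell-cycle promoters in capitals. The motifs searched on both strands were the CCAAT box that NF-Y binds, the CHR (TTTGAA) that the MuvB complexes bind, and the E2F core, spelled either TTGGCGC or as TTCCCGC, otherwise as TTCGCGC and lastly as TTGCCGC. The H2afz window is chr3:137864237-137864486 on the plus strand, the H2afv window is chr11:6444444-6444693 on the minus strand and the Anp32e window is chr3:95929007-95929256 on the plus strand, all in RefSeq GRCm38.p6, and 3 of 3 members were matched.
H2afz: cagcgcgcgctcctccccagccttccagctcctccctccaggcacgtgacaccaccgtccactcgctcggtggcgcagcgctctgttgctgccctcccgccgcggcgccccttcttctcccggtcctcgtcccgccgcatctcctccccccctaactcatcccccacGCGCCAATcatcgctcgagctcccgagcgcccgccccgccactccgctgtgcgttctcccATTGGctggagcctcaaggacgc
H2afv: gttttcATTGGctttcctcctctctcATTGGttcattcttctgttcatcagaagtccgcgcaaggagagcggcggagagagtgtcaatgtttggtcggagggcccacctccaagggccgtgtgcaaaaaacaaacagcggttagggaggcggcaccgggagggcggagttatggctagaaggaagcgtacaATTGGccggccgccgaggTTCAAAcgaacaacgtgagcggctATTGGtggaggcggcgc
Anp32e: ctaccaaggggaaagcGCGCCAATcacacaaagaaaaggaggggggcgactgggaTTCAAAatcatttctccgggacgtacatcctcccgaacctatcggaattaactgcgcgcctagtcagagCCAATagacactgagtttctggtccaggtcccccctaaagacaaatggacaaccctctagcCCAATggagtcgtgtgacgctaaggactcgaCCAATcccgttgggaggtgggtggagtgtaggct
The H2afz window held 2 CCAAT matches, 1 E2F core match and 0 CHR matches. The H2afv window held 4 CCAAT matches, 1 CHR match and 0 E2F core matches. The Anp32e window held 4 CCAAT matches, 1 CHR match and 1 E2F core match. In H2afz and in Anp32e the E2F core match overlaps a CCAAT match and both are marked as 1 run of capitals. Of 32851 RefSeq windows of the same length, 33.9% held a CCAAT match, 10.1% held 2 or more, 0.840% held 4 or more, 15.99% held a CHR match, 7.89% held an E2F core match and 5.55% held both CCAAT and CHR. A match is a run of letters, and binding was not measured. The motifs were chosen from general knowledge after the windows had been seen.

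The 4 libraries held 9511 to 13301 barcodes and 112027160 to 144385614 unique molecular identifiers (UMIs, 1 per captured transcript end). Filters at 500 detected genes and 10% mitochondrial UMIs left 41122 of 44151 barcodes with library medians of 9824 to 10226.5 UMIs per cell. Of the barcode sequences, 209 occurred in more than 1 library and 43731 in 1 library only. Srcap itself was at 58.8, 81.5, 52.7 and 53.2 CPM (UMIs of a gene scaled to a fixed total of UMIs of the cells summed) in libraries 1 to 4, which ties no library to a genotype. Cells were assigned by marker genes to gates, and 12 gates held at least 50 cells in every library. The stem gate held 8842 cells with a UMI of Procr, the stem cell surface receptor EPCR, and at least 2 other stem markers. The other uncommitted progenitors were 11497 cells that met no gate. Although the sort was for HSPCs, the matrix also held gates of more mature cells, such as 744 cells with pro-B or pre-B markers (Ebf1 in 99.9% of them, Vpreb3 in 97.8%) and 532 with plasma cell markers (Jchain in 98.1%, Xbp1 in 99.4%). The gate for T, NK or innate lymphoid cells had few T cell receptor messages, with Cd3e in 5.79% of its cells.

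In CPM, the members were highest in cells with pro-B or pre-B markers and lowest in plasma cells, and stem cells lay near the lower end. H2afz had 3579.5, 3471, 4068 and 4107 CPM in pro-B or pre-B cells of libraries 1 to 4, against 1213, 1337, 1221 and 1107 CPM in stem cells and 640, 549, 334 and 348 CPM in plasma cells. The 3 gates did not overlap in any library. H2afv had 968, 918, 1060.2 and 1060.3 CPM in pro-B or pre-B cells, against 430, 445, 387 and 348 CPM in stem cells and 161, 163, 115 and 92.6 CPM in plasma cells. Anp32e had 495, 562, 528 and 526 CPM in pro-B or pre-B cells, against 154, 181, 134 and 136 CPM in stem cells and 86.9, 95.2, 48.2 and 51.4 CPM in plasma cells. Immunoglobulin messages, abundant in plasma cells, enter the total behind a CPM value, and their part in the low level was not tested. Per cell, H2afz had a median over libraries of 50.3 UMIs in pro-B or pre-B cells, 10.9 in stem cells and 7.89 in plasma cells. H2afv had 13.4, 3.66 and 2.33 UMIs per cell in these gates. Anp32e had 6.96 in pro-B or pre-B cells, 1.29 in stem cells (range 1.23 to 1.71) and 1.19 in plasma cells (range 0.83 to 1.65). The Anp32e ranges per cell of stem and plasma cells thus overlapped.

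Between these ends the order of the gates differed between the genes. For H2afz the next levels were in the megakaryocyte gate (median over libraries 2384 CPM, range 2328 to 2560.2), the early granulocyte gate (2370.3, range 2292 to 2436), the erythroid gate (2116, range 1913 to 2179.8), monocytes (2012, range 1815 to 2207) and common lymphoid progenitors (1975, range 1890.3 to 2090.2). The ranges of megakaryocyte and early granulocyte cells overlap, as do those of erythroid, monocyte and common lymphoid cells. Other uncommitted progenitors followed at 1686 CPM (range 1679 to 1787), overlapping with macrophages at 1653, lymphoid-primed cells at 1631 and T, NK or innate cells at 1525. Stem cells at 1217 CPM (range 1107 to 1337) lay below all of these without overlap and above plasma cells at 448 CPM (range 334 to 640.2).

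H2afv had its second highest level in common lymphoid progenitors, with a median of 658 CPM and a range of 643 to 680.4, which did not overlap with pro-B or pre-B cells above or early granulocyte cells below. Early granulocyte, megakaryocyte and lymphoid-primed cells overlapped at 537, 528 and 523 CPM. Stem cells at 409 CPM (range 348 to 445) overlapped with macrophages at 440.1 and with monocytes at 378. Erythroid cells, which ranked 4 for H2afz, were next to last for H2afv at 333 CPM (range 331 to 366). This rank held in CPM only. Per cell, erythroid cells had a median of 6.47 UMIs of H2afv, against 3.66 in stem and 5.64 in lymphoid-primed cells. In CPM, Anp32e ran the other way in the erythroid gate. Erythroid cells were second at 303 CPM (range 276 to 383), overlapping with common lymphoid cells at 279 and megakaryocyte cells at 275. From the common lymphoid down to the stem gate, each gate's Anp32e range overlapped with that of the gate ranked before it. Stem cells were at 145 CPM (range 134 to 181) and plasma cells at 69.1 CPM (range 48.2 to 95.2).

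**Figure D1:**
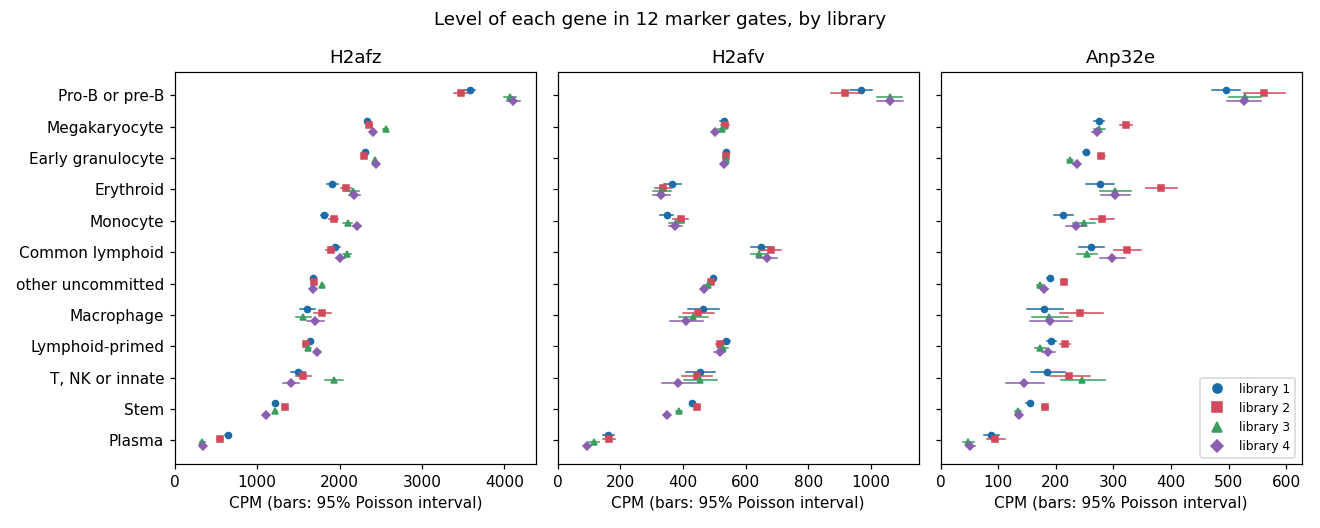
CPM of H2afz, H2afv and Anp32e (x axes, linear) in the 12 gates with at least 50 cells in every library (y axis, in the order of H2afz), with 1 symbol per library and 95% Poisson intervals that cover counting error only. Pro-B or pre-B cells sit highest and plasma cells lowest for each gene, and the erythroid gate changes place between H2afv and Anp32e.

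The levels followed the cell cycle in each gate with enough cells. Cells were classed on counts thinned to 5000 UMIs, with lists of 30 S-phase and 35 G2/M genes that hold no member. Resting cells had at most 2 UMIs of both lists together, S-gene cells had at least 6 S-list UMIs and under 10 G2/M-list UMIs, and late-cycle cells had at least 10 G2/M-list UMIs. Other cells were intermediate. The stem gate had 2333 resting, 1499 S-gene and 1202 late-cycle cells, and the other uncommitted progenitors had 1808, 3040 and 2349. The late-cycle class had a median of 39 UMIs of replication-dependent histone genes in the stem gate and 60 in other progenitors. The S-gene class had 3 in both, no more than resting cells at 3 and 4. The late-cycle class was therefore split, after these values had been seen. Histone-rich cells had at least 20 histone UMIs, and histone-poor cells had under 20 histone UMIs and at least 20 G2/M-list UMIs. Histone-rich were 693 of the 1202 late-cycle stem cells and 1663 of the 2349 late-cycle other progenitors. In neither were 197 stem cells and 342 other progenitors. The unsplit late-cycle class is thus mostly histone-rich, and its values do not set G2/M cells alone against replicating cells.

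H2afz was already higher in S-gene cells than in resting cells. Among other progenitors it had 638, 626, 761 and 685 CPM in resting cells, 1465, 1364, 1651 and 1667 CPM in S-gene cells, and 3026, 2944, 3423 and 3272 CPM in late-cycle cells of libraries 1 to 4. The 3 classes did not overlap. The log2 ratio of CPM + 1 of S-gene to resting cells had a median of 1.16 (range over libraries 1.12 to 1.28), a 2.23-fold difference, and that of late-cycle to resting cells was 2.24 (range 2.17 to 2.26), or 4.72-fold. In stem cells H2afz had 566, 527, 616 and 585 CPM in resting cells, 1331, 1217, 1387 and 1388 CPM in S-gene cells, and 2543, 2564, 2993 and 2890 CPM in late-cycle cells. The ratios were 1.22 (range 1.17 to 1.24) and 2.28 (range 2.16 to 2.30).

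H2afv and Anp32e had smaller ratios than H2afz in both S-gene and late-cycle cells. Their ratios were larger in late-cycle than in S-gene cells. H2afv had 265, 259, 265 and 242 CPM in resting other progenitors, 368, 353, 376 and 366 CPM in S-gene cells, and 867, 808, 877 and 907 CPM in late-cycle cells. Its log2 ratios to resting cells were 0.49 (range 0.44 to 0.60) for S-gene cells and 1.71 (range 1.64 to 1.90) for late-cycle cells. Anp32e had 94.98, 119, 98.4 and 102 CPM in resting other progenitors, 150.4, 169.7, 147 and 159 CPM in S-gene cells, and 323, 345, 304 and 326 CPM in late-cycle cells, with log2 ratios of 0.60 (range 0.51 to 0.66) and 1.64 (range 1.53 to 1.75). In each library the classes stood apart in the same order for both genes. In stem cells the S-gene ratios were 0.60 (range 0.55 to 0.62) for H2afv and 0.56 (range 0.36 to 0.67) for Anp32e, and the late-cycle ratios were 1.85 (range 1.77 to 1.96) and 1.58 (range 1.498 to 1.71).

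With no replicates of known group there was no test, and a gene was counted as higher or lower where it was so by at least 1.5-fold in all 4 libraries. By this rule 1 of the 3 members, H2afz, was higher in S-gene than in resting cells, in other progenitors and in stem cells alike, where 4.97% and 4.8% of all tested genes were. In other progenitors H2afv also passed with stricter class limits (log2 ratio 0.74) and as mean UMIs per cell (1.00), and Anp32e passed as mean UMIs per cell (1.12). In late-cycle against resting cells 3 of 3 members were higher in both populations, where 8.66% of tested genes were in other progenitors and 8.66% in stem cells. For late-cycle H2afz, 2.91% of 9890 genes had a larger median in other progenitors and 2.77% of 10011 in stem cells. The median log2 ratio of all tested genes lay between -0.04 and 0.02 in these 4 comparisons. Late-cycle cells also hold more RNA: the median UMI count per cell was 7448.5 in resting stem cells, 10324 in S-gene and 14286 in late-cycle stem cells. Counted per cell instead of as CPM, H2afz had 4.42, 14.6 and 41.0 UMIs in these classes, H2afv 1.83, 3.87 and 12.6, and Anp32e 0.76, 1.54 and 4.36.

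**Figure D2:**
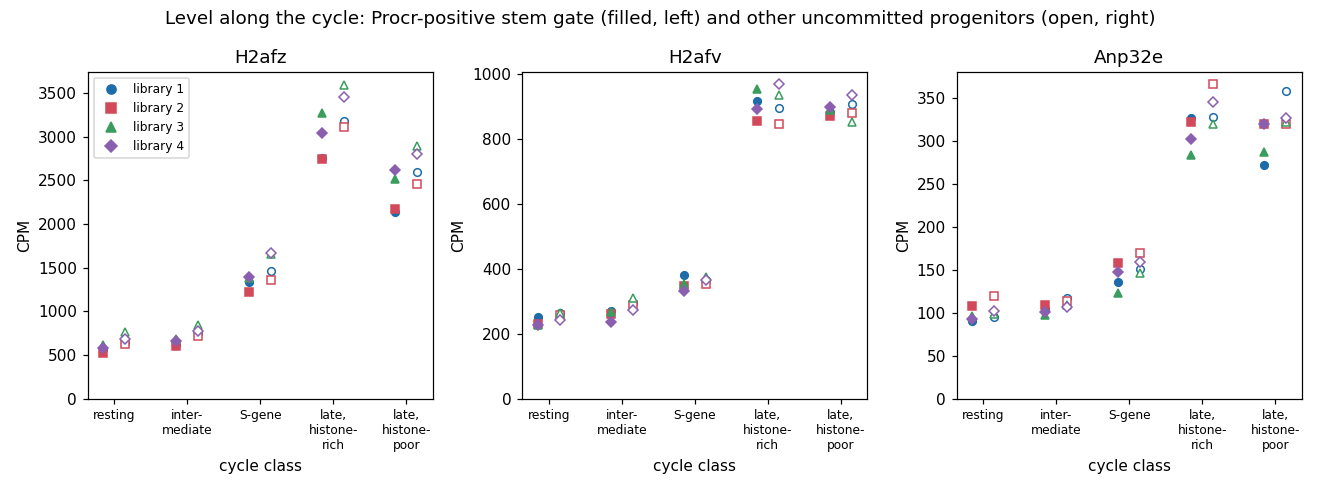
CPM of each gene (y axes, linear from 0) in cycle classes (x axis), with 1 symbol per library, filled and to the left for the stem gate and open and to the right for other uncommitted progenitors. Each gene is higher in both late-cycle classes than in the other classes, and H2afz is already well above its resting level in S-gene cells.

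All 3 genes were higher in histone-rich late-cycle cells than in S-gene cells, by similar factors. In other progenitors the log2 ratio of histone-rich late-cycle to S-gene cells was 1.12 for H2afz (range 1.05 to 1.19), 1.30 for H2afv (range 1.26 to 1.40) and 1.12 for Anp32e (range 1.11 to 1.12). In stem cells it was 1.153, 1.36 and 1.12. All 3 passed the fold rule in both populations, where 4.02% of tested genes were higher in other progenitors and 3.72% in stem cells. Between histone-poor and histone-rich late-cycle cells, H2afz differed and the other members hardly did. H2afz had 2591, 2459, 2892 and 2800.4 CPM in histone-poor other progenitors, against 3178, 3115, 3587 and 3453 CPM in histone-rich ones. It was lower in histone-poor cells in 4 of 4 libraries, with a log2 ratio of -0.31 (range -0.34 to -0.29), and in stem cells the ratio was -0.35 (range -0.38 to -0.22). H2afv had ratios of -0.02 in both populations, and Anp32e had -0.03 in other progenitors and 0.00 in stem cells, with libraries on both sides of 0. None of the members was 1.5-fold lower, where 2.63% of tested genes were in other progenitors and 2.29% in stem cells.

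Finer steps showed where along the cycle the genes part. Among other progenitors with at most 2 G2/M-list UMIs, H2afz had a median over libraries of 668 CPM at 0 S-list UMIs, 938 CPM at 6 to 10, 1276 CPM at 11 to 15 and 1667 CPM at 21 or more. H2afv had 254, 293, 325 and 401 CPM at the same steps and Anp32e 109, 137, 141 and 157 CPM. Along the G2/M list, H2afz had 2937 CPM at 10 to 19 UMIs, 3235 CPM at 20 to 39, 3332 CPM at 40 to 59 and 2961 CPM at 60 or more. It was lower at the last step than at the step before in all 4 libraries, at 2836, 2882, 3095 and 3041 CPM against 3221, 3150, 3601 and 3443 CPM. H2afv had 618, 861, 1009 and 1060.5 CPM at these 4 steps and Anp32e 235, 302, 394 and 402 CPM, without a lower median at the last step. Stem cells had the same order of steps for each gene along the G2/M list. Each step held at least 36 other progenitors per library, and the smallest stem step, at 21 or more S-list UMIs, held 17 cells in library 1.

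**Figure D3:**
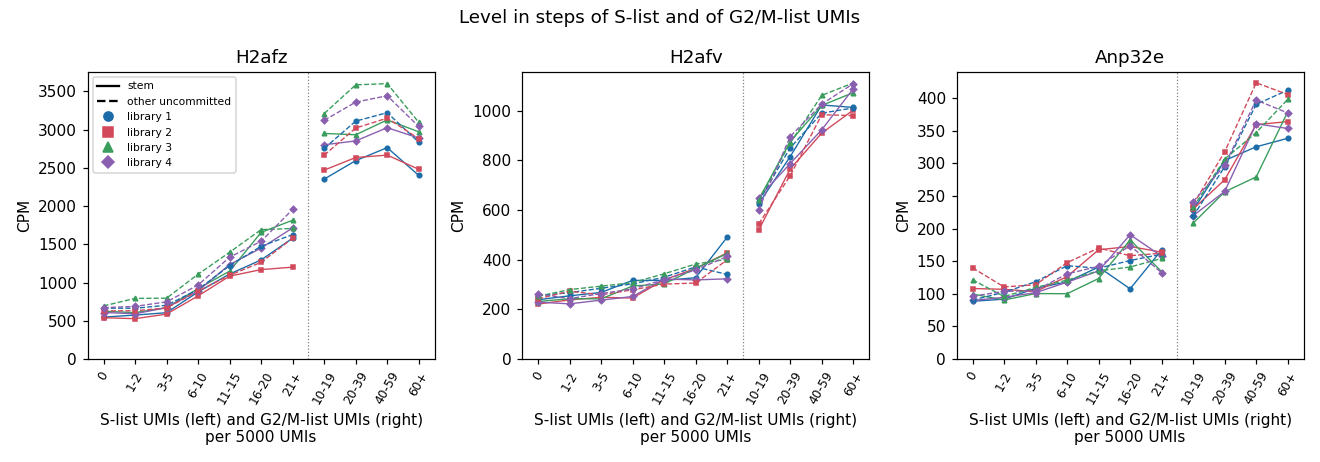
CPM of each gene (y axes, linear from 0) by S-list UMIs in cells with at most 2 G2/M-list UMIs (left of the dotted line) and by G2/M-list UMIs (right of it), per 5000 UMIs, with 1 line per library, solid for the stem gate and dashed for other uncommitted progenitors. H2afz is lower at 60 or more G2/M-list UMIs than at 40 to 59, whereas the medians of H2afv and Anp32e are not.

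The same pattern was present in 3 further gates. H2afz had late-cycle to resting log2 ratios of 2.32 in lymphoid-primed, 2.19 in early granulocyte and 2.27 in megakaryocyte cells. Anp32e had 1.76, 1.81 and 1.54. H2afv had 1.67, 1.23 and 1.81. Its late-cycle CPM was lower in early granulocyte cells (657.5, range 637 to 676) than in lymphoid-primed cells (856, range 762 to 895). Per cell this order was not kept, with 13.3 UMIs (range 12.5 to 14.4) against 12.9 (range 11.6 to 13.7). Late-cycle erythroid cells had less H2afv than both, at 380.4 CPM (range 356 to 455), or 10.0 UMIs per cell (range 9.5 to 10.4). Their Anp32e, at 337 CPM (range 309 to 407), overlapped with that of other progenitors at 324 CPM (range 304 to 345). Late-cycle pro-B or pre-B cells kept the highest H2afz of the gates, with 3749, 3663, 4322 and 4389 CPM, and each of these was above the late-cycle other progenitors of the same library. They also had 1058 CPM of H2afv (range 961 to 1132) and 563 CPM of Anp32e (range 519 to 587). Of the pro-B or pre-B cells, 567 were late-cycle and 6 were resting, whereas of the plasma cells 36 were late-cycle and 390 were resting. Resting plasma cells had 209, 168, 193 and 174 CPM of H2afz, against 566, 527, 616 and 585 CPM in resting stem cells, or per cell a median of 3.23 UMIs against 4.42.

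The share of H2A.Z transcripts that came from H2afv differed between gates. UMIs of 3′ libraries count transcript ends, so no length scaling was applied, and unequal capture of the 2 messages was not tested. H2afv made up 26.2%, 25.0%, 24.1% and 23.9% of the H2afz and H2afv UMIs in stem cells of libraries 1 to 4, against 22.8%, 22.4%, 21.2% and 21.8% in other uncommitted progenitors. The stem share was higher in 4 of 4 libraries. Lymphoid-primed cells (24.6%, range 23.1% to 24.7%) and common lymphoid cells (25.0%, range 23.5% to 26.5%) were near the stem cells. Early granulocyte cells had 18.5% (range 17.9% to 18.96%), megakaryocyte cells 17.9% (range 17.0% to 18.5%), monocytes 15.7% (range 14.6% to 16.9%) and erythroid cells 13.6% (range 13.2% to 16.1%).

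The share also changed along the cycle. In stem cells and other progenitors H2afz was higher in S-gene cells by a larger factor than H2afv, so the share was lower there. In stem cells it had a median of 29.1% (range 27.1% to 30.9%) in resting, 21.3% (range 19.3% to 22.3%) in S-gene, 23.2% (range 22.6% to 25.0%) in histone-rich late-cycle and 27.4% (range 25.5% to 29.2%) in histone-poor late-cycle cells. Other progenitors had 27.7%, 19.3%, 21.7% and 25.5% in these classes. Within resting cells the share was 31.6% in early granulocyte cells and 33.6% in lymphoid-primed cells, whereas megakaryocyte cells had 23.3% (range 21.8% to 25.2%) and monocytes 12.1% (range 9.28% to 13.9%), below the resting stem cells in all 4 libraries. Resting monocytes had 873.5 CPM of H2afz and 126 CPM of H2afv as medians over libraries, from 35 to 65 cells each.

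**Figure D4:**
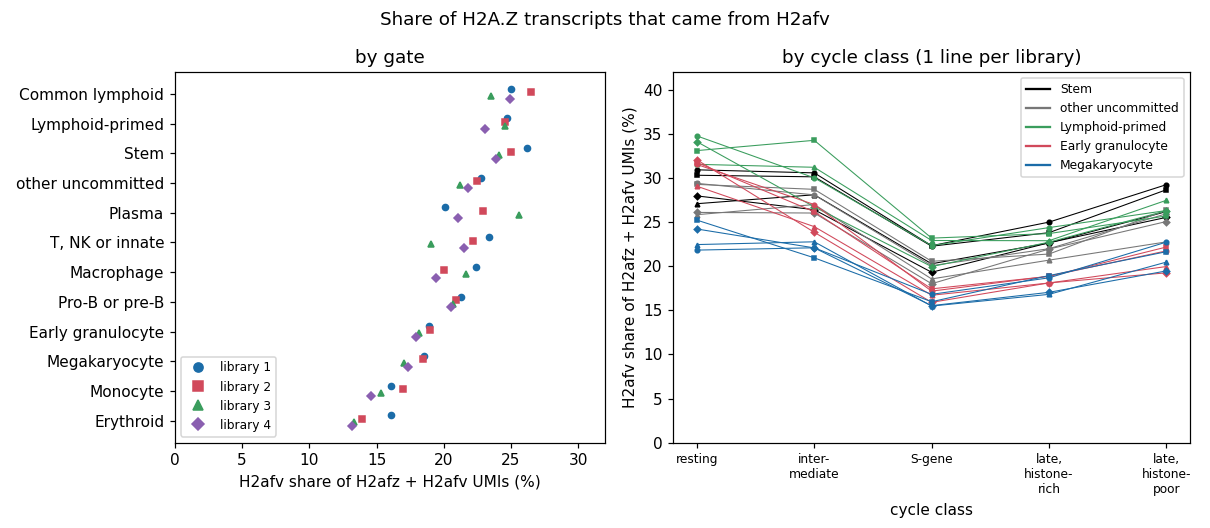
H2afv share of the summed H2afz and H2afv UMIs (percent) by gate (left, 1 symbol per library) and by cycle class in 5 gates (right, 1 line per library). The share is highest in the common lymphoid, lymphoid-primed and stem gates and lowest in erythroid cells, and in each of the 5 gates S-gene cells have a lower share than resting cells.

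Stem cells had less of each member than other uncommitted progenitors, and part of that difference went with their cycle classes. Over all cells the log2 ratio of stem to other progenitors was -0.51 for H2afz (range -0.60 to -0.34), -0.26 for H2afv (range -0.43 to -0.14) and -0.33 for Anp32e (range -0.40 to -0.24), and each was lower in 4 of 4 libraries. Resting cells were 27.6% of the classed stem cells and 16.9% of the classed other progenitors, and late-cycle cells were 14.2% and 22.0%. The other progenitors were then weighted to the class shares of the stem cells of the same library, taken as shares of summed UMIs and not of cells. With these weights the ratios were -0.22 for H2afz (range -0.24 to -0.20), -0.07 for H2afv (range -0.13 to -0.02) and -0.13 for Anp32e (range -0.15 to -0.12). Their values were negative in all 4 libraries. The shift was smallest in library 2, where classed cells gave -0.35 for H2afz and -0.24 for Anp32e, and -0.20 and -0.14 with the class shares made equal.

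Within the cycle classes the differences were of similar size from class to class for H2afz and for Anp32e, and not for H2afv. In resting cells the ratios of stem to other progenitors were -0.24 for H2afz (range -0.31 to -0.17), -0.13 for H2afv (range -0.21 to -0.07) and -0.10 for Anp32e (range -0.14 to -0.04). In S-gene cells they were -0.21 for H2afz (range -0.26 to -0.14), -0.06 for H2afv (range -0.14 to 0.06) and -0.13 for Anp32e (range -0.25 to -0.11). In late-cycle cells they were -0.20 for H2afz (range -0.25 to -0.18), 0.00 for H2afv (range -0.09 to 0.03) and -0.15 for Anp32e (range -0.17 to -0.11). H2afz and Anp32e were below other progenitors in every class and library, and H2afv lay on both sides in S-gene and late-cycle cells. The S-gene classes differed in S-list UMIs, with a median of 12 in stem cells and 14 in other progenitors. In the steps with at most 2 G2/M-list UMIs, stem cells had 885 CPM of H2afz against 938 at 6 to 10 S-list UMIs. The values were 1130 against 1276 at 11 to 15, 1373 against 1508 at 16 to 20 and 1647 against 1667 at 21 or more. The part of this in the S-gene ratios was not tested. No member passed the fold rule, and few tested genes were 1.5-fold lower: 0.191% over all cells, 0.211% in resting, 0.0718% in S-gene and 0.114% in late-cycle cells.

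The stem gate and the other progenitors are close in most stem genes, which limits this contrast. Of the resting other progenitors, 98.3% had UMIs of at least 2 stem markers other than Procr, and the summed stem list was at 2984 CPM in resting stem cells against 2548 CPM in resting other progenitors. A stricter contrast, chosen after seeing these values, set Procr-positive cells with at least 4 other stem markers and no UMI of Cd48 or Flt3 against Procr-negative cells with both. Their summed stem lists were at 3035 and 1845 CPM in resting cells. The ratios of strict stem cells to Cd48 Flt3 progenitors in resting cells were -0.18 for H2afz (range -0.28 to -0.10), -0.32 for H2afv (range -0.41 to -0.18) and 0.01 for Anp32e (range -0.14 to 0.20). In late-cycle cells they were 0.06 for H2afz (range -0.06 to 0.11), 0.18 for H2afv (range 0.16 to 0.22) and 0.04 for Anp32e (range -0.01 to 0.07). In CPM, H2afv was thus lower in resting and higher in late-cycle strict stem cells, in 4 of 4 libraries each. Per late-cycle cell, strict stem cells had a median of 12.5 H2afv UMIs (range 11.8 to 14.1). Cd48 Flt3 progenitors had 12.7 (range 11.7 to 13.6), so the late-cycle difference was not present per cell. Per resting cell the medians were 1.68 and 2.12. Late-cycle total UMIs per cell were 13699 and 15190.5, and G2/M-list UMIs were not matched. In S-gene cells the ratios were -0.20, -0.15 and -0.07. Again no member passed the fold rule, where 3.58% of tested genes were lower in resting, 1.6% in S-gene and 1% in late-cycle cells.

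**Figure D5:**
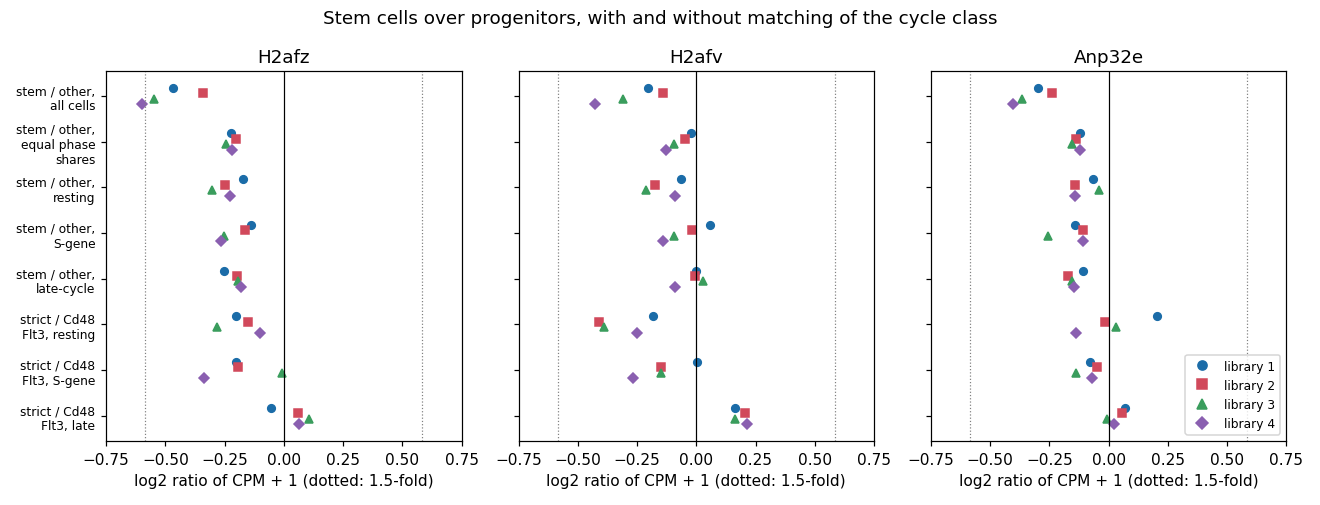
Log2 ratio of CPM + 1 of stem cells over progenitors (x axes) for each gene, with 1 symbol per library. The upper 5 rows set the stem gate against other uncommitted progenitors over all cells, at equal class shares and within each class, and the lower 3 rows use the strict gates. In the upper 5 rows the medians over libraries lie nearer to 0 with classes matched, and the strict gates have no unmatched row. In no row is a gene past the dotted 1.5-fold lines in all 4 libraries.

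The fold rule was also applied along the cycle to genes of the machinery that places, removes and reads H2A.Z. The lists are short, and their counts were not tested against the share of all tested genes. In S-gene cells H2afv and Anp32e did not pass the rule. In other progenitors, 0 of 10 SRCAP complex genes, 0 of 11 TIP60-p400 genes, 0 of 11 INO80 genes and 0 of 5 genes of H2A.Z readers were 1.5-fold higher in S-gene than in resting cells, against 4.97% of tested genes. In late-cycle cells the counts were 1, 2, 1 and 0 against 8.66%. These were Ruvbl2, an ATPase shared by SRCAP, TIP60 and INO80 (79.2 against 49.1 CPM, log2 ratio 0.68), Brd8 (142 against 77.0 CPM, 0.85) and Meaf6 (58.4 against 32.2 CPM, 0.81) of TIP60-p400, and Uchl5, a deubiquitinase bound to INO80 (106 against 56.5 CPM, 0.98). In stem cells the S-gene counts were 1, 1, 1 and 0, namely Actl6a, Meaf6 and Uchl5, against 4.8% of tested genes. The late-cycle counts in stem cells were 1, 1, 1 and 0, namely Actl6a, Brd8 and Uchl5, against 8.66%. The median log2 ratio of the SRCAP complex list was 0.06 in S-gene and 0.21 in late-cycle other progenitors, beside -0.04 and -0.03 over all tested genes. In stem cells it was 0.22 in S-gene and 0.25 in late-cycle cells, beside -0.01 and 0.02 over all tested genes.

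Other histone chaperones were higher in cycling cells more often. Of 16 such genes, 9 were 1.5-fold higher in S-gene than in resting other progenitors and 7 in late-cycle ones, and in stem cells 8 and 7 were, against 4.97%, 8.66%, 4.8% and 8.66% of tested genes. Nasp, a chaperone of H3 and H4, had 209 CPM in S-gene against 30.9 CPM in resting other progenitors (log2 ratio 2.72), Chaf1a, of the replication-coupled chaperone CAF-1, had 65.8 against 6.18 CPM (3.24), and Nap1l1, a chaperone of H2A and H2B, had 708 against 319 CPM (1.11). Asf1b had 18.0 against 0.563 CPM, too low at rest for its ratio to be read. Anp32b, a relative of Anp32e, had 1011 against 599 CPM (0.74) in S-gene and 1191 against 599 CPM (0.99) in late-cycle cells. Nasp and Chaf1a were 1.5-fold lower in histone-poor than in histone-rich late-cycle cells of both populations (-1.11 and -1.53 in other progenitors), where Anp32e was at -0.03. The list of other replication-independent histones held 8 genes. Of these, H2afx, whose product marks DNA breaks, had 597 CPM in histone-rich late-cycle against 75.3 CPM in S-gene other progenitors (log2 ratio 2.97). Whether H2afx messages are replication-independent in these cells was not tested. In that contrast 4 of the 8 were 1.5-fold higher, against 4.02% of tested genes. H1f0, a linker histone of resting cells, had 42.6 CPM in S-gene against 83.5 CPM in resting other progenitors (-0.96). In the stem against other progenitor contrasts of the main gates, no gene of the 6 lists was 1.5-fold lower or higher in all 4 libraries.

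Likeness over the 12 gates was measured as Pearson's r of log2(CPM + 1) within each library, and 5564 genes were ranked by the lowest of the 4 values. The gates of a library share its depth and differ in cell cycle, and r is given as a description. H2afz and Anp32e had an r of 0.953 to 0.975 with each other. A higher lowest r was had by 12 genes with Anp32e than by H2afz, and by 50 genes with H2afz than by Anp32e. H2afz and H2afv had an r of 0.859 to 0.917, with 509 genes ranked higher for H2afz and 200 for H2afv. H2afv and Anp32e had 0.779 to 0.892, with 600 genes ranked higher for H2afv and 727 for Anp32e. The genes most like H2afz were Hnrnpd (lowest r 0.985), Hnrnpa3 (0.981), which both encode RNA-binding proteins, Ran (0.980), the GTPase of nuclear transport, and Smc2 (0.977), a condensin subunit, followed by Ppia, Mif, Ranbp1 and Gmnn. Those most like H2afv were Ctcf (0.974), the insulator-binding factor, Hmgn2 (0.970), a nucleosome-binding protein, Calm2 (0.969) and Raly (0.964), followed by Rnf7, Rbbp4, Smc4 and Nde1. Those most like Anp32e were Tacc3 (0.970), a spindle protein that is in the G2/M list, Psmc5 (0.963), Smc2 (0.962) and Ezh2 (0.960), the Polycomb methyltransferase, followed by Hnrnpa3, Dut, Suz12 and Gmnn.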

How the data were processed

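The authors deposited 1 aggregated matrix of UMI counts (whole numbers, 1 value for each gene in each cell). Per the file headers it comes from Cell Ranger 6.1.2, and the build is mm10 per the submitters' processing notes. The counts were not scaled per cell, and whether depth was evened out at aggregation is not given in the sources used here. Libraries were separated by barcode suffix, and values are given per library or as a median and range, since the genotype of each library is not known. The planned comparison of mutant with WT could not be made without a link from suffix to sample.

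A cell entered a committed gate with at least 3 of that gate's markers. It took the gate with the largest share of markers detected, and 1172 ambiguous cells (2.85%) were left out. A cell in no committed gate was stem with Procr and at least 2 other stem markers, lymphoid-primed with Flt3 and Dntt, and otherwise an other uncommitted progenitor. No doublet caller was run, 4628 cells met 2 or more gates, and an alternative leaves out the 5% of cells with the most UMIs. Cycle classes used counts thinned to 5000 UMIs, and 391 stem cells and 816 other progenitors below that depth were not classed. UMIs were summed per library and class and given as CPM with exact 95% Poisson intervals, which cover counting error only. Ratios are log2 of CPM + 1, over genes with an average of at least 5 CPM on both sides. The calculation was checked on simulated counts. Python 3.11.15, numpy 2.4.6, scipy 1.17.1, pandas 2.3.3, biopython 1.88 and blastn 2.17.0 were used.

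The members, gene lists and comparisons were chosen with earlier results of these data known. Genes of the lists are named where they passed 1.5-fold in all 4 libraries, at most 8 per contrast, and H1f0 and the genes compared between histone-poor and histone-rich cells were chosen after their values were seen. The genes most like a member are the first 8 with at least 20 CPM on average, leaving out ribosomal, mitochondrial and unnamed genes. Alternatives were other scalings, thresholds, gates and filters, and leaving out each library.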

Additional observations from a re-analysis of the deposited data

How the results depend on the processing

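Across 15 values and 156 alternatives, 155 kept their direction, 153 kept their side of the 1.5-fold rule and 23 moved by more than the spread between libraries. Leaving out any 1 library changed neither direction nor call. Counted as mean UMIs per cell, the S-gene to resting log2 ratios in other progenitors were 1.67 for H2afz, 1.00 for H2afv and 1.12 for Anp32e, and with stricter class limits 1.52, 0.74 and 0.72. H2afv passed the fold rule under both and Anp32e under the first. The late-cycle to resting ratios for H2afz, H2afv and Anp32e were 3.18, 2.66 and 2.57 as UMIs per cell, 2.30, 1.92 and 1.76 with stricter limits, and 1.98, 1.48 and 1.42 with late-cycle cells of few histone UMIs alone. Without ribosomal, mitochondrial, hemoglobin, cycle and histone genes in the total, H2afz had 2.14 and Anp32e 1.53, and with classes called at 3000 UMIs H2afz had 2.18. For resting stem cells against other progenitors, UMIs per cell gave -0.17 for H2afz and -0.039 for Anp32e, and the strict gates gave -0.18 for H2afz, -0.32 for H2afv and 0.0081 for Anp32e, the last with the opposite sign. The alternative of few histone UMIs and the strict gates were chosen after seeing the data. The cause of these changes was not tested. No paired analysis was possible because no label ties the libraries to the samples that carry replicate numbers. The ratios between cell classes were each taken within 1 library, and no test was run over libraries of unknown genotype. Counts per cell limit Anp32e most, at a median over libraries of 0.76 UMIs per resting stem cell and 1.25 per resting megakaryocyte cell, so that its resting values rest on sums over cells.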

Other observations

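The libraries, whose genotypes are not known, differed in H2afz, with libraries 3 and 4 above libraries 1 and 2 in several gates and cycle classes. In histone-rich late-cycle cells H2afz had 2757, 2742, 3268 and 3045.5 CPM in stem cells of libraries 1 to 4, 3178, 3115, 3587 and 3453 CPM in other uncommitted progenitors, 2795, 2673, 3164 and 3096 CPM in lymphoid-primed cells, 2915, 2827, 3230.3 and 3153 CPM in early granulocyte cells and 3271, 3179, 3725 and 3532 CPM in megakaryocyte cells. Libraries 3 and 4 were above libraries 1 and 2 in each of these 5 gates. The same held in resting other progenitors (638, 626, 761 and 685 CPM), in S-gene other progenitors (1465, 1364, 1651 and 1667 CPM), in resting stem cells (566, 527, 616 and 585 CPM) and in S-gene stem cells (1331, 1217, 1387 and 1388 CPM). It did not hold in resting lymphoid-primed cells (506, 542, 608 and 517 CPM), in S-gene lymphoid-primed cells (1260.4, 1097, 1248 and 1341 CPM) or in resting megakaryocyte cells (754, 552, 723 and 703 CPM). Nor did it hold over all cells of the stem gate, where library 2 was highest and library 4 lowest. In the plasma gate, libraries 3 and 4 were below libraries 1 and 2. The histone-rich class itself differed between libraries: its other progenitors had a median of 82, 82, 57 and 69 histone UMIs per cell and its stem cells 77, 76, 53 and 59, and the part of this in the H2afz values was not tested. Anp32e did not have this order: it had 328, 366, 319.6 and 345 CPM in histone-rich other progenitors, with library 2 highest, and 327, 322, 284 and 302 CPM in histone-rich stem cells, with library 1 highest. Library 2 was highest for Anp32e in resting stem cells, at 90.7, 108, 95.7 and 92.5 CPM. H2afv had 895, 847, 935 and 970.2 CPM in histone-rich other progenitors, with library 2 lowest. What these libraries differ in was not tested.

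Gates with few cells were given no comparison, and their H2afz ranges overlapped with those of larger gates. Basophil or mast cells had a median of 2319 CPM of H2afz over libraries (range 2201 to 2949, 132 cells in all), where megakaryocyte cells ranged from 2328 to 2560.2 CPM. Conventional dendritic cells had a median of 1127 CPM (range 975 to 1488, 86 cells), where stem cells ranged from 1107 to 1337 CPM. Plasmacytoid dendritic cells had a median of 1711 CPM, with a wide range of 747 to 2035 CPM from 45 cells. The H2afv share was 11.3% as a median over libraries in conventional dendritic cells (range 10.5% to 16.4%), against 27.4% in plasmacytoid dendritic cells (range 24.0% to 31.6%), from 9 to 28 cells per library and gate.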
